A study of Homo sapiens with 12 samples.

Results

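BCR-ABL1, the fusion kinase of chronic myeloid leukaemia, was followed through the 10 genes that encode it and a set of its signalling partners. These are BCR and ABL1, the parents of the fusion, the adaptors GAB2, CRKL and GRB2, the transcription factors STAT5A and STAT5B, and the STAT5 target genes PIM1, CISH and SOCS2. They were chosen by name from what is known of the pathway. No threshold on a measured value was used, although earlier results of these data were known when the list was made. All 10 were found among the 60671 genes with a deposited count, and all 10 were among the 18626 genes with enough counts to be tested.

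RNA-seq counts came from 3 human leukaemia cell lines, with 4 libraries each. K562 is the parental line, an established line of chronic myeloid leukaemia in blast crisis. K/VP.5 is a single etoposide-resistant clone that was selected from K562 under intermittent and later continuous etoposide, a drug that traps topoisomerase II on DNA. K562/SSedit-2 is a single clone made from parental K562 with Cas9 and a repair template, in which the 5′ splice site of intron 19 of TOP2A was silenced on some of its alleles. All 3 lines descend from the same fusion-positive cells, were kept in the same medium and were taken in mid-log growth. Since each derived line is 1 clone, a difference from K562 cannot be told apart from a difference between clones. The labels number the libraries but do not say that they are separate cultures, so p-values measure the spread between these libraries, which may be technical.

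BCR-ABL1 arises when part of chromosome 9 joins chromosome 22, which puts the kinase of ABL1 behind the first exons of BCR and keeps it active. The adaptor GRB2 binds a phosphorylated tyrosine in the BCR part and brings in GAB2 and SOS, which opens the PI3K and RAS pathways. CRKL is a direct substrate whose phosphorylation is read in the clinic as a measure of kinase activity. STAT5A and STAT5B are phosphorylated, enter the nucleus and switch on survival genes such as PIM1, together with CISH and SOCS2, which damp cytokine signalling.

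In GRCh38 with GENCODE 44, BCR (ENSG00000186716) lies at chr22:23179704-23318037 on the plus strand and ABL1 (ENSG00000097007) at chr9:130713043-130887675, also on the plus strand. K562 is known to carry the transcript that joins exon 14 of BCR to exon 2 of ABL1. The reference bases on each side of that join are shown because they mark what a gene count can and cannot see. The last 30 bases of BCR exon 14 (chr22:23290384-23290413) and the first 30 bases of ABL1 exon 2 (chr9:130854064-130854093) follow, both exonic and on the plus strand.
BCR exon 14, end: actcagccactggatttaagcagagttcaa
ABL1 exon 2, start: aagcccttcagcggccagtagcatctgact
Exons 1 to 14 hold 3234 of the 6783 bases (47.7%) of the canonical BCR transcript, and exons 2 to 11 hold 5306 of the 5578 bases (95.1%) of that of ABL1. A read counted for BCR or ABL1 can therefore come from the fusion or from a normal allele, and counts per gene cannot tell these apart.

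A second sequence concerns the targets. STAT5 is known to bind the palindrome TTCNNNGAA, which reads the same on both strands. RefSeq windows from 250 bases before to 50 bases after the transcription start (GRCh38.p14) were found for 9 of the 10 genes, 12 windows in all, and SOCS2 was not among them. Among all 35116 windows of this length, 2689 (7.66%) held the motif. Of the genes studied here, CISH held it, 4 times in 1 window, and the other 8 did not hold these letters in theirs. Only 7 of all windows (0.0199%) held it at least 4 times. The CISH window is on the minus strand at chr3:50611725-50612024, with the motif in capitals. The first bases of the matches lie at -241, -230, -129 and -112 from the start. A match is a description of the letters and not a measured binding site.
CISH promoter: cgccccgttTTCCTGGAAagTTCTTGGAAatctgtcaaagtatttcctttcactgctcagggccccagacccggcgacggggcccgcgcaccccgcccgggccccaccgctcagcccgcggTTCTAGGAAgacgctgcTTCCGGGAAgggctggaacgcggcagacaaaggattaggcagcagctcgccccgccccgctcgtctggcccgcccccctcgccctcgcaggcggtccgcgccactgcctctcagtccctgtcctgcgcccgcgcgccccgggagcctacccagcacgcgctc

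Libraries held 28981722 to 43648830 counts. The lowest count of any of the 10 genes in a library was 1978 (CISH) and the highest 49379 (STAT5A). Levels are given as CPM, that is counts scaled to a common library size by the TMM method. TOP2A, the edited gene, was 352.5 to 487.6 CPM in K562, 177.1 to 207.6 in K562/SSedit-2 and 267.9 to 282.3 in K/VP.5, so all 3 lines were apart. Of 8 erythroid and megakaryocytic markers, 8 were above 1 CPM in every line, with sums of 1461 to 1642 CPM in K562, 1703 to 2044 in K562/SSedit-2 and 1297 to 1546 in K/VP.5. Among lymphoid markers 2 of 5 were above 1 CPM, with sums of 25.4 to 53.1, 38.7 to 54.7 and 9.25 to 12.8 CPM in the same order, and MS4A1 was at 0 in both derived lines. Of 4 mature myeloid markers none exceeded 1 CPM on average. In such bulk libraries, fewer cells expressing a gene and less of its RNA per cell cannot be told apart, and the part of these marker differences in the results below was not tested.

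Genes were compared with edgeR's quasi-likelihood test, with p-values adjusted by the Benjamini-Hochberg method over every gene tested, and a gene is called changed here at an adjusted p under 0.10. Intervals are 95% intervals of the log2 fold change.

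In K/VP.5, 8 of the 10 genes differed from K562. GAB2, CISH and SOCS2 rose by about 1.4 to 1.71-fold, ABL1 and CRKL rose by a smaller amount, and STAT5A, STAT5B and PIM1 fell, STAT5A to 0.530 of the K562 level. The 5 that rose are set against 26.2% of all tested genes called higher, and the 3 that fell against 26.1% called lower. No gene passed the stricter limit of a 2-fold change with the same adjusted p, which 8.98% of all genes passed upwards and 6.66% downwards. That count was also 0 of 10 at an unadjusted p under 0.05 with a 2-fold change, with DESeq2 and with limma voom. The median absolute log2 fold change was 0.33 for the 10 genes and also 0.33 for all tested genes. In size of change the group was therefore close to the typical gene of this comparison.

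In K562/SSedit-2, BCR, STAT5A and STAT5B fell below K562 and none of the 10 rose. The 3 calls stand beside 7.79% of all genes called lower, and the 0 calls upwards beside 4.86% called higher. At an unadjusted p under 0.05 the counts were 5 lower and 0 higher, beside 13.7% and 9.01% of all genes. DESeq2 called 4 lower and 0 higher, limma voom 3 lower and 0 higher. With upper-quartile scaling, or when only these lines were fitted, 1 call was left, STAT5A. None passed 2-fold with the adjusted p, against 0.805% of all genes upwards and 1.26% downwards, and none did so at an unadjusted p under 0.05 or with DESeq2 or limma voom. The median absolute log2 fold change was 0.13 for the 10 genes and 0.16 for all.

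K562/SSedit-2 was also set against K/VP.5, which for each gene tests whether the 2 derived lines had moved from K562 by different amounts. STAT5A and PIM1 were higher in K562/SSedit-2, and BCR, ABL1, GAB2, CISH and SOCS2 were lower. These 2 and 5 calls stand beside 26.2% of all genes called higher and 27.8% called lower. CRKL, GRB2 and STAT5B did not pass the test. The 2-fold limit with the adjusted p was passed by 6.20% of all genes upwards and 9.62% downwards, and by none of the 10. DESeq2 counted 0 as well, limma voom counted 1, and 0 passed at an unadjusted p under 0.05. CISH lay just inside the limit, at 0.501 of its K/VP.5 level.

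**Figure D1:**
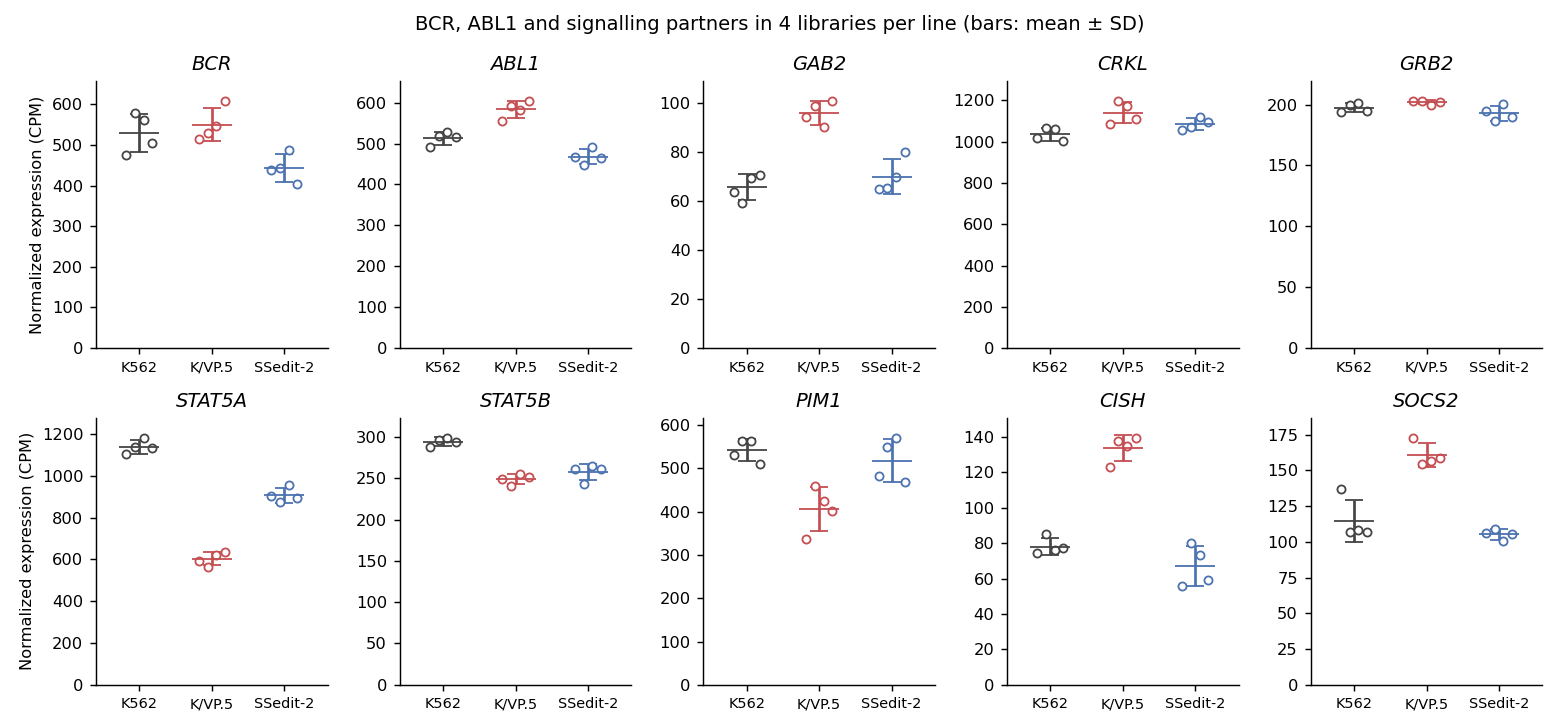
Normalized expression (CPM, linear axes from 0) of the 10 genes in each library of the 3 lines. Open points are libraries, horizontal lines means and bars ± SD (n = 4). The K/VP.5 points stand clear of both other lines for STAT5A, GAB2, CISH and SOCS2, with STAT5A at 564.1 to 635.2 CPM against 1103 to 1184 in K562.

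BCR carries the oligomerization domain that activates the fusion. BCR was at 475.1, 577.7, 560.3 and 503.8 CPM in replicates 1 to 4 of K562, at 515.2, 528, 546.9 and 608.4 in K/VP.5 and at 437.8, 442.3, 488.3 and 403.7 in K562/SSedit-2. The ranges of K562 and K/VP.5 overlapped in part, while 3 of 4 K562/SSedit-2 libraries lay below every K562 library. BCR did not pass the test in K/VP.5, with a log2 fold change of 0.05 (SE 0.08, interval -0.11 to 0.22, edgeR adjusted p = 0.606). In K562/SSedit-2 it fell by 0.26 on the log2 scale (SE 0.08, edgeR adjusted p = 0.0571), and its difference from K/VP.5 was -0.31 (SE 0.08, edgeR adjusted p = 0.00367). The fall against K562 was a weak call. Its log2 fold change was -0.23 with upper-quartile scaling (edgeR adjusted p = 0.130) and -0.25 when only these lines were fitted (edgeR adjusted p = 0.134). It also missed the threshold without K562 replicate 2 (-0.21, edgeR adjusted p = 0.187) or replicate 3 (-0.23, 0.143), and without K562/SSedit-2 replicate 1 (-0.25, 0.112), replicate 2 (-0.24, 0.142) or replicate 4 (-0.20, 0.216).

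ABL1 gives the fusion its tyrosine kinase. ABL1 was at 491.1, 518.2, 529.1 and 514.9 CPM in K562, at 555.2, 592.6, 583.1 and 604.5 in K/VP.5 and at 467.2, 447.1, 491.4 and 465 in K562/SSedit-2. Every K/VP.5 library was above every library of the other lines, and K562/SSedit-2 touched K562 at its highest library. It rose by 0.19 on the log2 scale in K/VP.5 (SE 0.05, edgeR adjusted p = 0.0107), or 1.14-fold, a call that was lost with no filter on low counts (0.16, edgeR adjusted p = 0.137). The value in K562/SSedit-2 was -0.13 (SE 0.05, edgeR adjusted p = 0.149). That difference passed the threshold with DESeq2 (-0.13, adjusted p = 0.0953) and without K562 replicate 1 (-0.15, edgeR adjusted p = 0.0637). Between the derived lines the difference was -0.32 (SE 0.05, edgeR adjusted p = 0.000134).

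Here and below, a level per kilobase is CPM divided by the length of all annotated exons of the gene, with overlaps counted once. This length was 12234 bases for BCR and 6991 for ABL1, against 6783 and 5578 in the canonical transcripts. A ratio between genes depends on that choice, and other lengths were not tried. On this measure, ABL1 exceeded BCR in every library. The ratio of ABL1 to BCR was 1.71 ± 0.11 (SD, n = 4) in K562, 1.85 ± 0.12 in K562/SSedit-2 and 1.86 ± 0.093 in K/VP.5, with overlapping ranges. Pseudogenes of BCR (BCRP1 to BCRP9) held at most 21 counts in a library. By the root mean square distance between log2 CPM profiles over the 12 libraries, each centred on its own mean, the genes most like BCR were NCLN (0.0414), P3H1 (0.0516) and MAP2K2 (0.0523), the last a kinase of the RAS-MAPK pathway. Those most like ABL1 were USP19 (0.0305), GANAB (0.0343) and WASHC2C (0.0369). None of these 6 lies on chromosome 9 or 22.

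Of the adaptors, GAB2 changed most. GAB2 (ENSG00000033327, chr11:78215293-78418348, minus strand) is the docking protein that links GRB2 to PI3K and SHP2. It was at 63.83, 59.06, 69.48 and 70.66 CPM in K562, at 94.13, 98.85, 90.06 and 100.9 in K/VP.5 and at 64.82, 65.18, 69.8 and 79.95 in K562/SSedit-2. All K/VP.5 libraries were above the other 8, while K562 and K562/SSedit-2 overlapped. GAB2 rose 1.46-fold in K/VP.5 (log2 fold change 0.55, SE 0.08, edgeR adjusted p = 3.06e-05). The value in K562/SSedit-2 was 0.09 (interval -0.08 to 0.26, edgeR adjusted p = 0.570), and the 2 derived lines differed by -0.46 (SE 0.08, edgeR adjusted p = 0.000169).

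CRKL (ENSG00000099942, chr22:20917407-20953747, plus strand) couples the kinase to adhesion and RAS-family signalling. CRKL was at 1018, 1064, 1062 and 1001 CPM in K562, at 1086, 1198, 1172 and 1109 in K/VP.5 and at 1055, 1069, 1118 and 1096 in K562/SSedit-2. K/VP.5 lay above K562 in every library, by a small margin, and K562/SSedit-2 overlapped both. The rise in K/VP.5 was 1.10-fold (log2 fold change 0.14, SE 0.05, edgeR adjusted p = 0.0439). This call was lost with no filter (0.11, edgeR adjusted p = 0.341), when only these lines were fitted (0.13, 0.103), and without K562 replicate 4 (0.10, 0.179), K/VP.5 replicate 2 (0.12, 0.131) or K/VP.5 replicate 3 (0.13, 0.121). In K562/SSedit-2 the value was 0.07 (interval -0.05 to 0.18, edgeR adjusted p = 0.526).

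GRB2 (ENSG00000177885, chr17:75318076-75405709, minus strand) was the most even of the group. GRB2 was at 193.9, 199.4, 201.6 and 194.8 CPM in K562, at 203.1, 202.9, 199.5 and 202.5 in K/VP.5 and at 194.9, 186.3, 200.7 and 190 in K562/SSedit-2. The lines overlapped pairwise. It passed no test, with log2 fold changes of 0.03 (interval -0.08 to 0.14, edgeR adjusted p = 0.637) in K/VP.5 and -0.03 (interval -0.14 to 0.08, edgeR adjusted p = 0.770) in K562/SSedit-2. These intervals bound the change but do not show that the lines were equal.

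STAT5A and STAT5B lie side by side on chromosome 17 and are read away from each other. STAT5A (ENSG00000126561) lies at chr17:42287547-42311943 on the plus strand and STAT5B (ENSG00000173757) at chr17:42199176-42288633 on the minus strand, and 415 bases of exon are shared on opposite strands. STAT5A was at 1103, 1137, 1184 and 1132 CPM in K562, at 593, 564.1, 620.9 and 635.2 in K/VP.5 and at 903, 873.5, 958.7 and 894.6 in K562/SSedit-2. The 3 lines did not overlap, with K562 highest, K562/SSedit-2 between and K/VP.5 lowest. STAT5A fell by 0.92 on the log2 scale in K/VP.5 (SE 0.06, edgeR adjusted p = 1.34e-09) and by 0.33 in K562/SSedit-2 (SE 0.06, edgeR adjusted p = 0.00162). The difference between these falls was 0.59 (SE 0.06, edgeR adjusted p = 2.66e-07). Both falls kept their call in all 16 alternative fits run for each comparison.

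STAT5B was at 287.4, 296.3, 299.3 and 294.4 CPM in K562, at 249.6, 241.2, 255.3 and 251.1 in K/VP.5 and at 261.8, 242.8, 264.9 and 260.6 in K562/SSedit-2. Both derived lines were below K562 in every library and overlapped each other. It fell by 0.24 on the log2 scale in K/VP.5 (SE 0.05, edgeR adjusted p = 0.00141) and by 0.19 in K562/SSedit-2 (SE 0.05, edgeR adjusted p = 0.0346). The latter call was lost with upper-quartile scaling (-0.16, edgeR adjusted p = 0.101), when only these lines were fitted (-0.18, 0.130) and without K562/SSedit-2 replicate 2 (-0.15, 0.170). The derived lines differed by 0.05 (interval -0.07 to 0.16, edgeR adjusted p = 0.501).

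The share of the STAT5 pair that came from STAT5A moved with these falls. Per kilobase of exon, the ratio of STAT5A to STAT5B was 7.34 ± 0.11 (SD, n = 4) in K562, 6.69 ± 0.18 in K562/SSedit-2 and 4.59 ± 0.16 in K/VP.5, with no overlap between lines. Their sum was 202.7 ± 5.61 CPM per kb in K562, 163.4 ± 6.34 in K562/SSedit-2 and 115.1 ± 5.35 in K/VP.5. The size of the ratio and of the sum depends on the exon lengths used, 6385 bases for STAT5A and 12110 for STAT5B. The order of the lines by this ratio does not. The strand setting of the authors' counting and the handling of reads that fit both paralogs are not given in the sources used here, so reads in the shared exon and in near-identical stretches could be split either way.

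**Figure D2:**
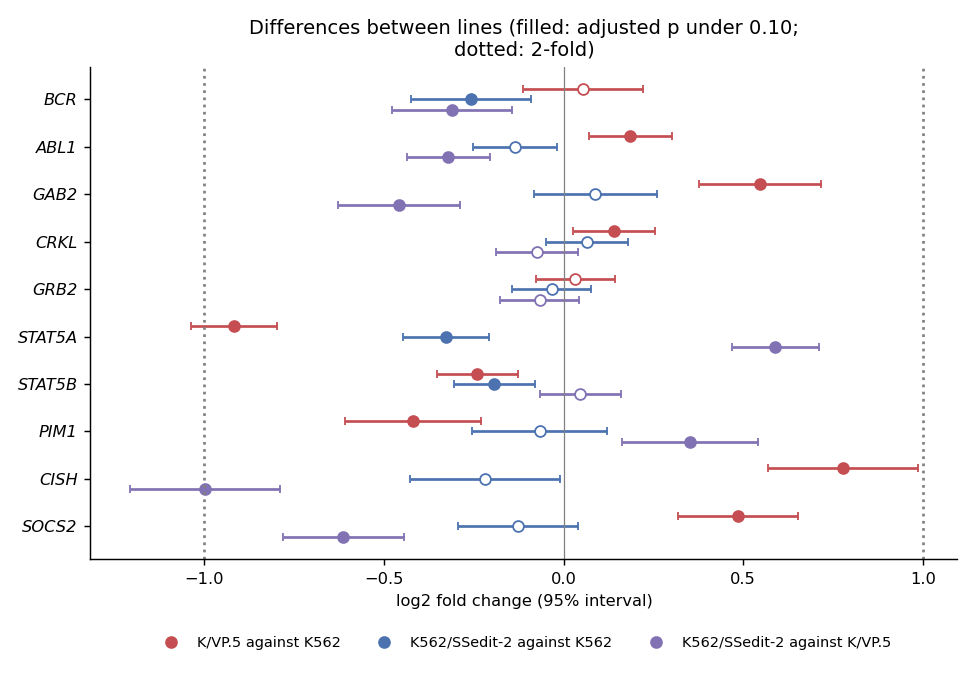
The log2 fold change (horizontal axis) of each of the 10 genes in 3 comparisons, with 95% intervals from edgeR; filled points have an adjusted p under 0.10 and dotted lines mark 2-fold. STAT5A lies at -0.92 in K/VP.5 and at -0.33 in K562/SSedit-2, and CISH reaches -0.997 when K562/SSedit-2 is set against K/VP.5.

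The 3 STAT5 targets split in K/VP.5: PIM1 fell, and CISH and SOCS2 rose. PIM1 (ENSG00000137193, chr6:37170152-37175428, plus strand) encodes a serine/threonine kinase that supports survival and translation. PIM1 was at 532, 562.8, 563.9 and 510.6 CPM in K562, at 337.9, 460.4, 424.6 and 401 in K/VP.5 and at 483.1, 549.4, 571.3 and 467.4 in K562/SSedit-2. K/VP.5 was below every library of the other 2 lines, which overlapped. PIM1 fell to 0.749 of the K562 level (log2 fold change -0.42, SE 0.09, edgeR adjusted p = 0.00103). In K562/SSedit-2 the value was -0.07 (interval -0.26 to 0.12, edgeR adjusted p = 0.724), and the derived lines differed by 0.35 (SE 0.09, edgeR adjusted p = 0.00376).

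CISH (ENSG00000114737, chr3:50606489-50611774, minus strand) encodes a suppressor of cytokine signalling that binds phosphorylated receptors. CISH was at 74.2, 84.96, 75.89 and 77.1 CPM in K562, at 123, 137.7, 134.9 and 139.6 in K/VP.5 and at 56.03, 80.05, 73.05 and 59.01 in K562/SSedit-2. The K/VP.5 libraries were at 123 CPM or more and all others at 84.96 or less. CISH rose 1.71-fold in K/VP.5 (log2 fold change 0.78, SE 0.10, edgeR adjusted p = 6.09e-06). In K562/SSedit-2 the value was -0.22 (SE 0.10, edgeR adjusted p = 0.194), and in a fit that blocked on the replicate number it passed the threshold, at -0.23 (edgeR adjusted p = 0.0765). It also passed with no filter (-0.24, edgeR adjusted p = 0.0687) and without K562/SSedit-2 replicate 2 (-0.30, edgeR adjusted p = 0.0744). The derived lines differed by -0.997 (SE 0.10, edgeR adjusted p = 3.76e-07), the widest gap of any of the 10 genes in these 3 comparisons.

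CISH shares 218 bases of exon, 4.31% of its length, with MAPKAPK3 on the opposite strand. MAPKAPK3 was at 90.2 ± 1.92 CPM in K562, 84.9 ± 1.26 in K562/SSedit-2 and 141.5 ± 4.64 in K/VP.5 (SD, n = 4), and it rose by 0.65 on the log2 scale in K/VP.5 (edgeR adjusted p = 4.59e-08). Its difference between K562/SSedit-2 and K/VP.5 was -0.74 (edgeR adjusted p = 9.85e-09). MAPKAPK3 thus moved with CISH, and without the strand setting the reads of the shared stretch cannot be told apart.

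SOCS2 (ENSG00000120833, chr12:93569814-93583487, plus strand) encodes a relative of CISH that restrains growth hormone and JAK-STAT signalling. SOCS2 was at 136.8, 107.1, 108.3 and 106.9 CPM in K562, at 172.9, 154.7, 156.4 and 158.7 in K/VP.5 and at 106, 108.9, 100.2 and 105.4 in K562/SSedit-2. K/VP.5 was above all other libraries, and K562 replicate 1 stood above the other K562 libraries. SOCS2 rose 1.40-fold in K/VP.5 (log2 fold change 0.49, SE 0.08, edgeR adjusted p = 8.84e-05). The value in K562/SSedit-2 was -0.13 (interval -0.29 to 0.04, edgeR adjusted p = 0.377), and the derived lines differed by -0.61 (SE 0.08, edgeR adjusted p = 7.75e-06). An antisense gene that overlaps 277 bases of its exons, SOCS2-AS1, was at 2.73 to 3.97 CPM on average over the lines.

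The opposite moves of PIM1 and CISH show in the ratio of PIM1 to CISH per kilobase of exon. It was 11.6 ± 0.68 (SD, n = 4) in K562, 13.03 ± 1.21 in K562/SSedit-2 and 5.05 ± 0.45 in K/VP.5. The K/VP.5 libraries, at 4.58 to 5.58, lay below all others, which ran from 11.1 to 14.4.

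Ordered by level per kilobase of exon in K562, the genes ran from CRKL (193.9 ± 5.99 CPM per kb), PIM1 (179 ± 8.52) and STAT5A (178.4 ± 5.22) through ABL1 (73.4 ± 2.29), BCR (43.3 ± 3.92) and GRB2 (41.9 ± 0.78) to STAT5B (24.3 ± 0.42), SOCS2 (17.7 ± 2.27), CISH (15.4 ± 0.94) and GAB2 (9.71 ± 0.79). PIM1 and STAT5A did not differ beyond their spread, nor did BCR and GRB2. SOCS2 and CISH differed by about their SD. In K/VP.5, CISH (26.5 ± 1.47) and SOCS2 (24.8 ± 1.29) stood above STAT5B (20.6 ± 0.49), and STAT5A (94.5 ± 4.93) was nearer to ABL1 (83.5 ± 3.003) than in K562. In K562/SSedit-2, BCR (36.2 ± 2.84) stood behind GRB2 (40.9 ± 1.33). Among all tested genes these levels were high, from the 75.1 percentile (GAB2 in K562) to the 99.2 percentile (CRKL in K/VP.5). The order of the genes and these percentiles depend on the exon length used, that of all annotated exons. They need not reflect the order of transcript levels.

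**Figure D3:**
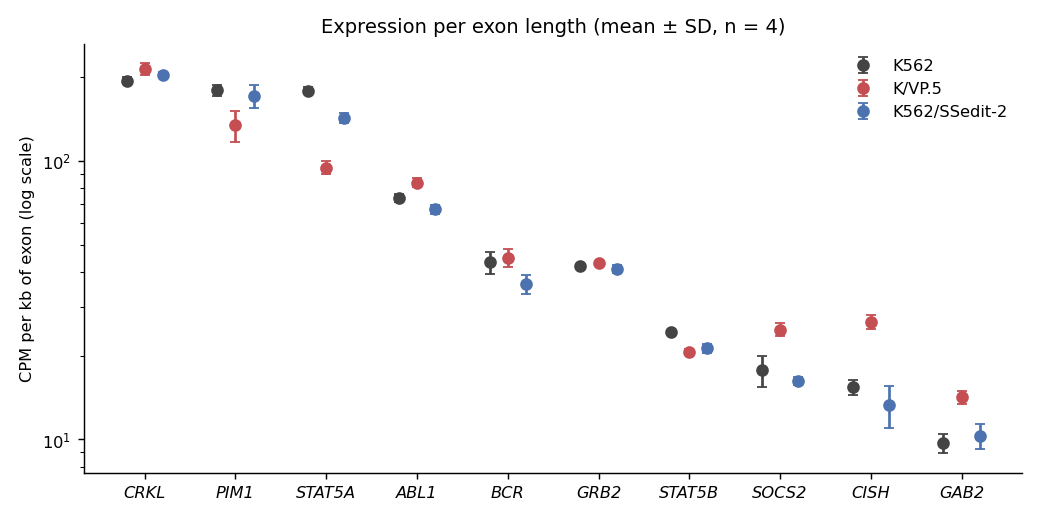
Level of each gene per kilobase of all its annotated exons (CPM per kb, log axis), as mean ± SD of 4 libraries per line, ordered by K562. The order of the genes depends on this length. CISH and SOCS2 stand above STAT5B in K/VP.5 and below it in K562, and STAT5A drops from 178.4 to 94.5 CPM per kb.

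Around these genes, 76 further genes of the pathway were listed, of which 70 had enough counts to be tested. In K/VP.5, 17 of the 70 were higher and 33 lower than K562, with a median log2 fold change of -0.14 beside 0.01 for all tested genes, of which 26.2% were called higher and 26.1% lower. These shares of all genes are the ones to set beside each K/VP.5 count that follows. In K562/SSedit-2, 6 were higher and 10 lower, with a median of -0.02 beside -0.01 and beside 4.86% of all genes called higher and 7.79% lower. SRC, PIK3CD, SOCS1, SOCS3, CCND2, ID1 and SPRY4 are named below by a rule of size, and the other genes after their values were seen.

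Among 9 further targets of STAT5, CCND2, SOCS1, SOCS3, BCL6 and MYC rose in K/VP.5 and ID1, PIM2, BCL2L1 and MCL1 fell, beside 26.2% and 26.1% of all genes. CCND2, a G1 cyclin, was at 114.9 ± 7.01 CPM in K562, 147 ± 17.9 in K562/SSedit-2 and 322.7 ± 12.03 in K/VP.5 (SD, n = 4), and rose in both derived lines, by 1.49 (edgeR adjusted p = 2.47e-10) and 0.36 (edgeR adjusted p = 0.0110) on the log2 scale. SOCS1, another suppressor of JAK signalling, was at 16.1 ± 3.41 CPM in K562, 9.58 ± 1.86 in K562/SSedit-2 and 40.6 ± 4.798 in K/VP.5. It rose by 1.33 in K/VP.5 (edgeR adjusted p = 1.70e-06) and fell by 0.75 in K562/SSedit-2 (edgeR adjusted p = 0.00653). SOCS3 rose by 0.88 in K/VP.5 (edgeR adjusted p = 9.92e-05). The suppressor genes CISH, SOCS1, SOCS2 and SOCS3, grouped after their values were seen, were thus all higher in K/VP.5 than in K562. Each was also higher under every scaling tried, which is no independent support, since the fits use the same libraries.

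Of the targets that fell in K/VP.5, PIM2, another PIM kinase, was at 181 ± 29.3 CPM in K562 and 95.6 ± 4.40 in K/VP.5, a fall of 0.92 on the log2 scale (edgeR adjusted p = 1.28e-06). BCL2L1, which encodes BCL-XL, fell by 0.59 (edgeR adjusted p = 3.32e-05), and MCL1 by 0.21 (edgeR adjusted p = 0.0241). ID1, which encodes an inhibitor of helix-loop-helix transcription factors, went from 135.9 ± 18.9 to 47.7 ± 2.42 CPM and fell by 1.51 (edgeR adjusted p = 3.84e-09). In K562/SSedit-2, ID1 fell by 0.41 (edgeR adjusted p = 0.0192) and MYC by 0.16 (edgeR adjusted p = 0.0985), while PIM2, BCL2L1 and MCL1 did not pass the test.

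**Figure D4:**
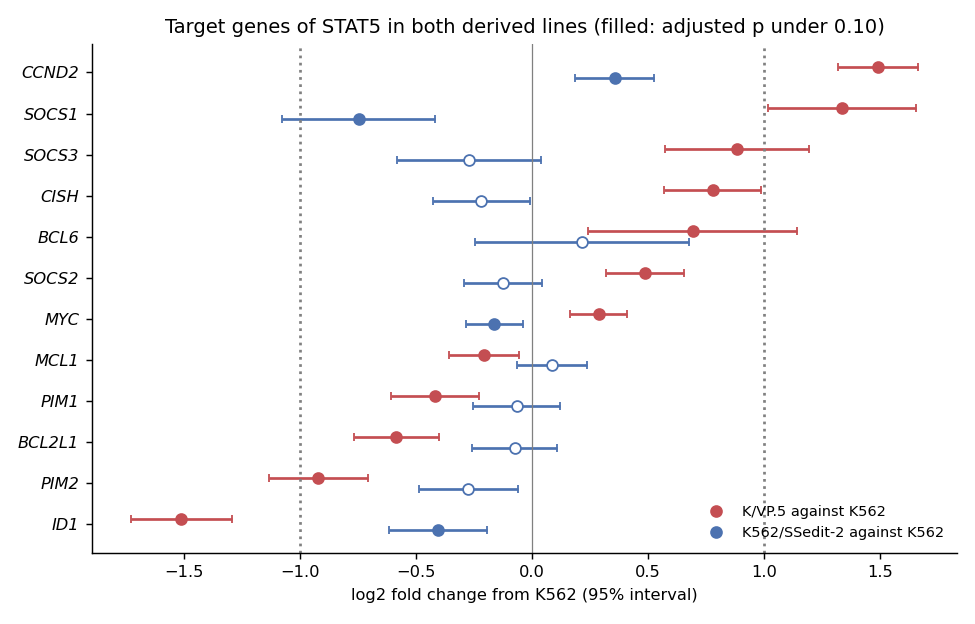
The log2 fold change from K562 (horizontal axis) of 12 target genes of STAT5 in both derived lines, with 95% intervals from edgeR, ordered by K/VP.5; filled points have an adjusted p under 0.10 and dotted lines mark 2-fold. In K/VP.5 the SOCS genes and CISH lie above 0 and PIM1, PIM2, BCL2L1 and MCL1 below it, and most K562/SSedit-2 points lie nearer to 0.

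Of 16 other partners, 3 rose in K/VP.5 (ABL2, the paralog of ABL1, the ubiquitin ligase CBL, and CRK, the paralog of CRKL) and 9 fell, beside 26.2% and 26.1% of all genes. The phosphatase gene PTPN6, which encodes SHP1, fell from 5.23 ± 0.64 to 2.10 ± 0.045 CPM (log2 fold change -1.31, edgeR adjusted p = 6.73e-07). It was 1 of 4 partners past 2-fold, with CBLB, DOK2 and INPP5D, all 4 under 10 CPM in every line. DOK2 and INPP5D had very few counts, at 0.209 and 0.223 CPM on average in K562 and 0.022 and 0.034 in K/VP.5. In K562/SSedit-2, INPP5D was called higher, at only 0.508 CPM (edgeR adjusted p = 0.0962), and DOK1 was called lower.

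Tyrosine kinases upstream of or beside STAT5 and the other STAT factors made up a list of 11 tested genes. In K/VP.5 the kinase genes FYN, YES1 and JAK2 rose, and the kinase genes SRC and FES and the transcription factor gene STAT6 fell. SRC itself was at 45.8 ± 5.95 CPM in K562, 58.0 ± 11.8 in K562/SSedit-2 and 19.2 ± 1.54 in K/VP.5, and fell by 1.26 on the log2 scale in K/VP.5 (edgeR adjusted p = 5.69e-07). JAK1 and JAK2 were called higher in K562/SSedit-2. Of the 3 cytokine receptors tested, KIT fell in K/VP.5 and EPOR and IL3RA did not pass the test.

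Within the PI3K-AKT module of 11 genes, PIK3CD rose and 6 fell in K/VP.5, beside the same 26.2% and 26.1%. PIK3CD, the catalytic subunit typical of blood cells, was at 36.7 ± 3.63 CPM in K562, 28.1 ± 0.66 in K562/SSedit-2 and 78.1 ± 2.71 in K/VP.5. It rose by 1.09 on the log2 scale in K/VP.5 (edgeR adjusted p = 2.67e-09) and fell by 0.39 in K562/SSedit-2 (edgeR adjusted p = 0.00295), where AKT1 was also called lower. Among genes of the RAS-MAPK module, NRAS rose and HRAS and BRAF fell in K/VP.5, and NRAS rose and MAP2K2 and MAPK3 fell in K562/SSedit-2. Of 10 feedback and target genes of ERK, 3 rose (SPRY1, DUSP4 and SPRED1) and 6 fell in K/VP.5, again beside 26.2% and 26.1%. SPRY1 and DUSP4 were low, at 0.006 and 0.110 CPM on average in K562 and 3.66 and 1.18 in K/VP.5. In K562/SSedit-2, PHLDA1 rose 2.01-fold (edgeR adjusted p = 0.0311) and SPRY2 and ETV4 fell. SPRY4, which restrains RAS signalling, was among the 6 that fell in K/VP.5, at 79.7 ± 21.0 CPM in K562 and 37.3 ± 4.97 in K/VP.5 (log2 fold change -1.09, edgeR adjusted p = 9.77e-06).

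K562 is known to hold extra copies of the fusion and of the DNA beside it, which makes the neighbours of BCR and ABL1 of interest. Copy number was not measured here. Tested protein-coding genes within 1000 kb numbered 5 before BCR, 14 after it, 12 before ABL1 and 11 after it, where before and after follow the plus strand. The sides kept in the fusion chromosome are those before BCR and after ABL1. Of the 5 before BCR, 2 were higher (GNAZ and RAB36) and 3 lower in K/VP.5, with a median log2 fold change of -0.19, and in K562/SSedit-2 their values ran from -0.09 to 0.01 and did not pass the test. On the other sides, 5 of the 14 after BCR were higher and 1 lower, and 4 of the 12 before ABL1 were higher and 4 lower in K/VP.5. On these sides K562/SSedit-2 was lower for 2 of the 14 and for 3 of the 12, and higher for 1 of the 12. Of the 11 after ABL1, 4 were higher and 5 lower in K/VP.5, with a median of -0.05, and 4 were lower in K562/SSedit-2. The shares of all genes were 26.2% higher and 26.1% lower in K/VP.5, and 4.86% higher and 7.79% lower in K562/SSedit-2. RAB36 was the nearest gene before BCR, at 14.04 kb, and RGL4 the nearest after it, at 370.1 kb.

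The nearest genes on either side of ABL1 were EXOSC2, 5.76 kb before it, and QRFP, 5.03 kb after it. EXOSC2 did not pass the test in K/VP.5 (log2 fold change 0.05, edgeR adjusted p = 0.690). QRFP was called higher there, from 2.45 to 3.25 CPM (log2 fold change 0.40, edgeR adjusted p = 0.0522). Between QRFP and NUP214, however, 3 genes chosen after their values were seen rose more than any of the 10 genes. On the side before ABL1, where 4 genes were called higher and 4 lower, ASS1 and PRRX2 were likewise picked by their values. ASS1, at 211.8 kb, rose by 2.16 (edgeR adjusted p = 7.53e-06), from 1.04 to 4.64 CPM. PRRX2, at 990.4 kb, rose by 1.40 (edgeR adjusted p = 0.00472), from 0.262 to 0.674 CPM. On the side after ABL1, the 3 genes were FIBCD1, LAMC3 and AIF1L. FIBCD1, at 14.8 kb, went from 0.913 ± 0.27 CPM in K562 to 7.67 ± 0.96 in K/VP.5 (log2 fold change 3.06, edgeR adjusted p = 5.11e-09). LAMC3, a laminin chain at 121.5 kb, went from 0.685 ± 0.22 to 44.8 ± 2.36 CPM (log2 fold change 6.03, edgeR adjusted p = 2.94e-14), and AIF1L, at 208.8 kb, from 30.3 ± 9.77 to 104.9 ± 5.86 (log2 fold change 1.79, edgeR adjusted p = 2.04e-07). NUP214, at 237.9 kb, was at 679 ± 73.3 and 698.3 ± 23.4 CPM, and did not pass the test (log2 fold change 0.04, edgeR adjusted p = 0.694). The rise of ABL1 itself in K/VP.5 was 1.14-fold. The cause of the rises near ABL1 was not tested.

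**Figure D5:**
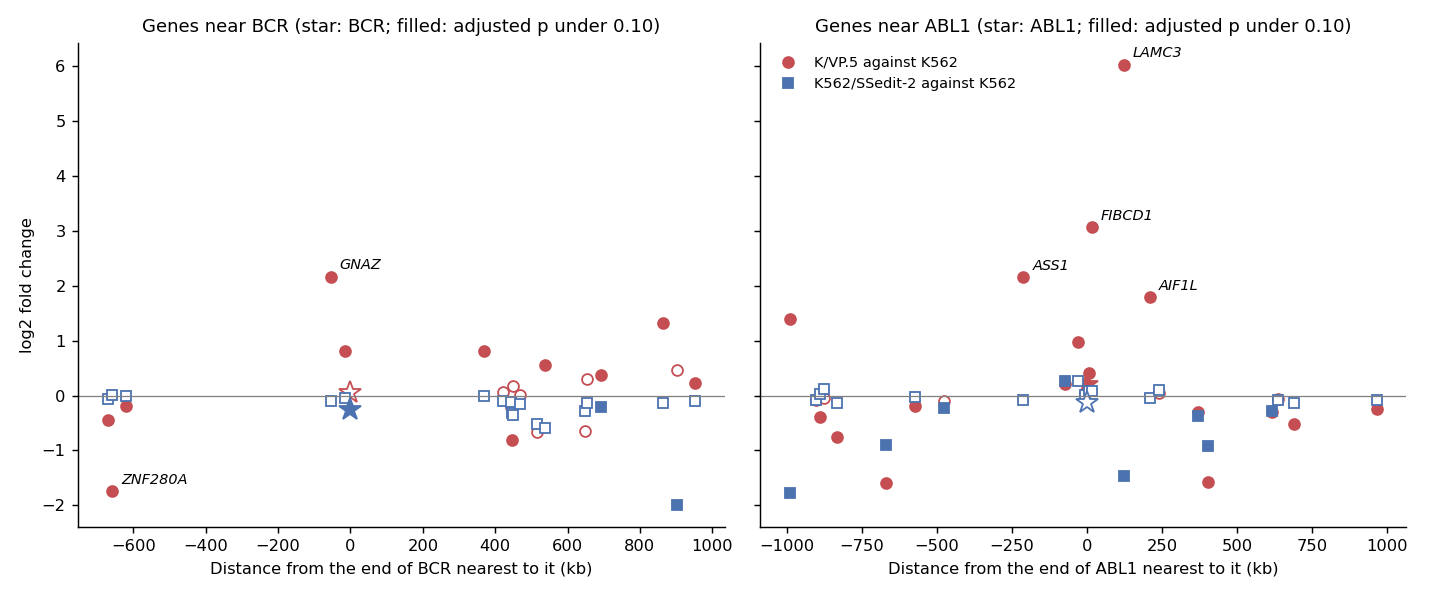
The log2 fold change from K562 (vertical axis) of tested protein-coding genes within 1000 kb of BCR (left) and ABL1 (right), by distance from the nearer end of the gene in kb, with circles for K/VP.5, squares for K562/SSedit-2 and stars for BCR and ABL1 themselves; filled marks have an edgeR adjusted p under 0.10. LAMC3 at 6.03 and FIBCD1 at 3.06 stand above the other genes near ABL1 in K/VP.5, with ASS1 on the opposite side at 2.16, while BCR and ABL1 lie close to 0.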

How the data were processed

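Total RNA of 12 samples was sequenced, with 4 samples a line. The authors mapped reads to GRCh38 with HISAT2 and deposited whole-number read counts per Ensembl gene from featureCounts, without normalization. The annotation release, strand setting and handling of multi-mapped reads are not given in the sources used here. Positions and symbols came from GENCODE 44 (60401 of 60671 IDs matched), promoters from RefSeq (GRCh38.p14).

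Counts were analysed in R 4.3.3 with edgeR 4.0.16. Genes were kept by filterByExpr (minimum count 10), which left 18626 genes with 99.9% of the counts. After TMM scaling, 1 model with line as its term took in all 12 samples, and lines were compared with the quasi-likelihood F test. P-values were adjusted by Benjamini-Hochberg over all tested genes. CPM values use the counts in tested genes and the TMM factor. Levels per kilobase divide CPM by the length of all annotated exons of a gene, with overlaps counted once. Standard errors were taken from each log2 fold change and its F statistic. The chi-square per degree of freedom between replicates of a line was 5.07 to 60.6 over 18 pairs, so none was a duplicate.

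The genes studied and the pathway lists were chosen with earlier results of these data known. Pathway genes were named if past 2-fold and 10% false discovery rate in a comparison, at most 4 a list by size, with at least 10 CPM in a line. Neighbours were counted over tested protein-coding genes within 1000 kb of BCR or ABL1, naming the nearest on each side. Similar genes were the 3 closest profiles. Some genes of the pathway lists are not reported here.

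Replicate numbers come from the labels. Deviations from the line means of same-numbered K562 and K562/SSedit-2 samples correlated at 0.135 to 0.292 across genes, so these were also fitted with the number as a block. The alternatives were RLE and upper-quartile scaling, DESeq2 1.42.0, limma 3.58.1 voom, no filter, at least 1 CPM in 4 samples, only the lines compared, the block, an adjusted p under 0.05, and each replicate left out. The steps were tested on simulated data.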

Additional observations from a re-analysis of the deposited data

Results flagged for a closer look

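Of the 30 groups of 4 libraries (10 genes in 3 lines), 1 held a library far from the others, and chance gives about 1 in 20. SOCS2 in K562 replicate 1 was at 136.8 CPM, while the other K562 libraries were at 106.9 to 108.3. Its gap to the nearest library was 0.954 of the range of the group, above Dixon's critical value for 4 samples. Without this library, SOCS2 rose by 0.56 on the log2 scale in K/VP.5 (edgeR adjusted p = 2.67e-07), against 0.49 with it, and the value in K562/SSedit-2 was -0.03 (edgeR adjusted p = 0.789), against -0.13. The cause was not tested.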

How the results depend on the processing

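Of the log2 fold changes of the 10 genes in 3 comparisons, 230 values under alternatives other than leaving out a library kept their direction and their side of the threshold, 7 lost a call and 3 gained one, with no reversal. With a library left out, 228 kept both, 9 lost a call, 2 gained one and 1 reversed. The reversal was BCR in K/VP.5 against K562, which ranged from -0.0147 (without K562 replicate 1, edgeR adjusted p = 0.892) to 0.0804 (without K562 replicate 2), and BCR was not called there in any setting. The number of the 10 genes called in K562/SSedit-2 against K562 was 1 in place of 3 with upper-quartile scaling and with only the lines compared, where STAT5A was the call left. The number past 2-fold in K562/SSedit-2 against K/VP.5 was 1 in place of 0 (CISH) with upper-quartile scaling, limma voom, the filter of at least 1 CPM, and the replicate block, and 0 to 1 with a library left out. The cause was not tested.

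Upper-quartile scaling moved the median log2 fold change of all genes in K/VP.5 from 0.01 to 0.07. Over all genes, calls in K562/SSedit-2 against K562 numbered 2356, with 1469 when only these lines were fitted and 1471 at an adjusted p under 0.05. Past 2-fold there were 384, or 246 with the filter of at least 1 CPM, and 2914 in K/VP.5 against K562, or 1923 with that filter, and 2945 in K562/SSedit-2 against K/VP.5, or 1972 with that filter.

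The replicate block raised the calls over all genes from 2356 to 3063 in K562/SSedit-2 against K562, from 9747 to 10257 in K/VP.5 against K562 and from 10055 to 10561 between the derived lines. It changed no call of the 10 genes but that of CISH in K562/SSedit-2. In K/VP.5 against K562 same-numbered samples correlated at 0.107 on average, and 3 of 8 samples correlated best with their own number. Between the derived lines these were 0.0325 and 4 of 8, with single pairs from -0.0947 to 0.161. The labels do not say whether same-numbered samples share more than a number. With 4 libraries a line, the 95% interval of GRB2 in K/VP.5 against K562 ran from -0.08 to 0.14 on the log2 scale. A change in GRB2 within these bounds was not excluded at this depth of replication.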
